A study of Bos taurus with 44 samples.

Results

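In this experiment, intercaruncular uterine tissue of 4 cows labelled AI, for artificial insemination, was compared with that of 5 cows labelled CJ, for which the labels give only the word cycle. The members are the 10 of the series' 44 arrays, on each of which 2 dyes compare 2 RNA samples, that give the intercaruncular area in their labels and set an AI animal (IAJ in the labels) against a CJ animal. The AI animals are B2, B3, B4 and B6, and the CJ animals are B5, B7, B8, B808 and B857. Both groups gave total RNA of frozen tissue, and no other allele, agent or treatment is named for either. The labels used here give neither the day of tissue collection nor a pregnancy check of the AI animals, and they do not say how the cyclic animals were staged. The comparison was a step of an indirect design: the labels state that AI and cloned pregnancies (SCNT, by nuclear transfer from somatic cells) were each set against CJ.

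The intercaruncular endometrium is the gland-bearing lining between the caruncles, the sites where the placenta will attach. In ruminants the elongating conceptus secretes interferon tau before it implants. This type I interferon acts on the endometrium, where it keeps the oxytocin receptor low and so blocks the pulses of prostaglandin that would end the corpus luteum, and it induces interferon-stimulated genes such as ISG15, RSAD2 and MX1. Progesterone meanwhile changes what the glands secrete for the conceptus, and the stroma below them is remodelled before attachment.

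Each array tied 1 AI to 1 CJ animal. B4 is named on 4 arrays, with B808 on 1, B857 on 1 and B8 on 2 with the dyes exchanged, while B2, B3 and B6 are each on 2. Every AI animal was labelled equally often with Cy3 and Cy5. The values are log2 ratios, so 1 unit is a 2-fold difference, and they hold no expression level: whether a marker was at background, in epithelium or stroma, could not be read. The SD of an array's 13824 probe values was 0.414 to 0.556, the array medians lay between -0.0075 and 0.0027, and adjacent spots printed for the same probe had r between 0.809 and 0.902 over all probes. All 13824 probes had a value on every array and none was filtered. Of these, 8645 carry 1 gene symbol, which gives 8073 genes with 1 probe each.

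Which dye stands in the numerator is not given here. Each ratio was read as Cy5 over Cy3, which is likely because ISG15, RSAD2 and MX1 then lie higher and the oxytocin receptor lower in AI than in CJ animals, which is their known direction once a ruminant conceptus signals. Their own sign is therefore no finding, and under the other reading every sign below turns.

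Results are given with and without B4 because it is named on 4 arrays where each other AI animal is on 2. B4 also stood apart from the other AI animals in its values. Turned to AI minus CJ, arrays of B2, B3 and B6 correlated with each other across probes with r of 0.339 to 0.721 (median 0.574 of 15 pairs), although some of these pairs share an animal. Arrays of B4 correlated with those of the other AI animals with r of -0.218 to 0.398 (median 0.101 of 24 pairs). The 4 arrays of B4 correlated with each other with r of 0.292 to 0.746 (median 0.412 of 6 pairs). Between animals that share no CJ partner, r was 0.715 for B3 and B6 and 0.124 for B2 and B4. They describe 13824 probes, and probes are no replicates. The same tissue label, RNA protocol and array design apply to B4, and what set it apart was not tested.

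With all 9 animals, 500 probes were higher and 748 lower in AI than in CJ animals at an adjusted p under 0.05, 9.03% of the 13824 tested. The test was limma's moderated statistic on 9 array values, with a dye term and Benjamini-Hochberg adjustment over all probes. The animal was counted as the replicate through 1 correlation of arrays that share an animal, pooled over all probes. Without B4, on 6 arrays of 3 AI and 4 CJ animals, 1396 probes were higher and 1379 lower (20.1%). Those past a difference of 1 numbered 146 with B4 and 413 without it. Of the 8073 genes, 333 rose (4.12%) and 602 fell (7.46%) with B4, against 912 (11.3%) and 1079 (13.4%) without it. The counts of gene lists below are to be read beside these shares. A total of 862 genes passed in the same direction in both fits, 73 only with B4, 1129 only without it and 0 in opposite directions.

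**Figure D1:**
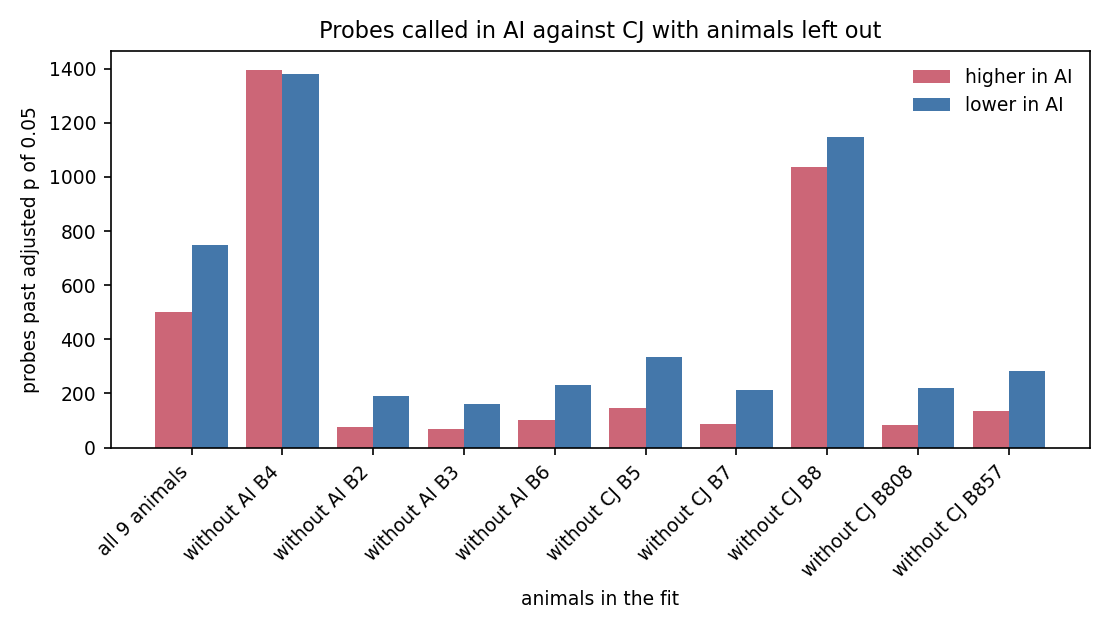
Number of probes past an adjusted p of 0.05 (vertical axis) that were higher or lower in AI than in CJ animals, for the fit of all 9 animals and for the fits that left out 1 animal with all its arrays (horizontal axis). The totals rise from 1248 to 2775 without B4 and to 2183 without its partner B8, and lie between 231 and 481 without any other animal.

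Many calls with B4 were lost when 1 animal was left out. Leaving out B8, whose 2 arrays are both shared with B4, gave 2183 probes, and leaving out any of the other 7 animals gave 231 to 481. Of the 108 genes named below that passed with B4, 30 passed in all 9 fits with 1 animal left out. The other 78 lost their call in at least 1, most often without B2 (69 genes), B7 (67), B6 (65), B3 (64) or B808 (64). Without B4, 135 genes of the same set passed, and 89 of these kept their call when any 1 of the remaining 7 animals was left out as well. With B4 but only 1 value per AI animal, 62 of the 108 kept their call by limma. Among those that lost it were OXTR (adjusted p = 0.058), NUPR1 (0.063), CCND3 (0.067) and COL1A2 (0.11). Where an estimate without B4 is given below with no p, it also passed the adjusted threshold unless the text says otherwise. A gene is said below to have held throughout where its call was kept in all 9 of the former fits. Genes outside the naming rule given with the processing, such as MMP2, C1S, IRF9, PSMB9, LDHA, KRT19, PSAT1, TOP2A, CTSB and those of the SCNT comparison, were chosen after their values were seen.

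The largest rises without B4 were the interferon-stimulated genes RSAD2, ISG15, IFI6 and MX1, and in B4 these lay between -0.63 and -0.23. RSAD2, an enzyme that halts viral replication, was at 5.39, 6.30, -0.34 and 5.03 (log2 difference from the CJ partners) in B2, B3, B4 and B6. The 4 arrays of B4 read between -0.66 and 0.04, and the 6 arrays of the other animals between 4.65 and 6.60, so the arrays do not overlap. With B4 the difference was 3.66 ± 1.04 (SE, 4 AI and 5 CJ animals, adjusted p = 0.061), and without it 5.59 ± 0.26 (adjusted p = 0.00017), a 48.1-fold difference. ISG15, a ubiquitin-like protein that is coupled to other proteins, was at 4.35, 5.56, -0.23 and 3.93, and it was 4.63 ± 0.40 without B4 (adjusted p = 0.00093). The dynamin-like antiviral protein MX1 was at 4.45, 4.64, -0.63 and 4.42 (4.50 ± 0.11 without B4), and MX2, its relative, at 3.08, 4.74, -0.06 and 2.48. IFI6, which guards against cell death in infected cells, was at 4.25, 5.10, -0.27 and 4.16. With B4, none of ISG15 (3.05, adjusted p = 0.074), MX1 (2.83, adjusted p = 0.079), MX2 (2.31, adjusted p = 0.077) and IFI6 (2.96, adjusted p = 0.071) passed. OAS1 was not analysed here.

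The spread of RSAD2 and ISG15 among CJ animals was small. Fitted over the 20 intercaruncular arrays with CJ and set to a CJ mean of 0, the RSAD2 level lay between -0.26 and 0.20 in the 5 CJ animals, at -0.27 in B4 and between 5.19 and 6.08 in the other AI animals. B4 thus lay just below the CJ animals for RSAD2. For ISG15 it lay inside that range (-0.13, against -0.17 to 0.33 in CJ animals). The CJ animals lay wider apart for MX1 (-0.42 to 0.88) and IFI6 (-0.61 to 1.37). B4 lay inside that range for MX1 (-0.30) and below it for IFI6 (-0.73). Without B4, RSAD2, ISG15, MX1, MX2 and IFI6 also kept their call when any further animal was left out, RSAD2 at 5.21 to 5.88 and ISG15 at 4.14 to 5.24.

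Of 16 measured antiviral effectors, 1 passed with B4 (a rise, TRIM25) and 14 rose without it. Their median was 2.01, 2.35 and 1.82 in B2, B3 and B6 and -0.11 in B4, where the median of all genes was -0.02 to -0.001. TRIM25, a ubiquitin ligase that activates the RNA sensor RIG-I, was at 1.03, 0.79, 0.23 and 0.78 and rose by 0.66 ± 0.15 (adjusted p = 0.031; 0.87 without B4). IFIT3 and IFIT5, which bind viral RNA, were at 2.32 and 2.18 without B4 and at 0.08 and -0.12 in B4. By limma with B4, 14 of the 16 were at an unadjusted p under 0.05. The count of adjusted calls was 12 without B8 and 0 without any 1 of B2, B3, B6, B5, B7, B808 and B857, while without B4 and any 1 further animal it lay between 13 and 14. The 5 measured genes of the ISG15 conjugation machinery, ISG15, UBA7, UBE2L6, HERC6 and USP18, all rose without B4 (median 1.82). With B4, 0 passed limma's adjusted threshold and 5 were at an unadjusted p under 0.05.

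Among 13 sensors and regulators of the interferon response, 2 rose with B4 and 7 without it, with a median of 0.55 without B4 against 2.12 for the effectors. IRF1, a transcription factor of the interferon response, was at 0.86, 1.05, 0.35 and 0.77, so B4 lay on the same side here (0.72 ± 0.14, adjusted p = 0.018; 0.90 without B4). JAK1, the kinase of the interferon receptor, rose by 0.41 ± 0.11 (0.55 without B4) and was at 0.15 in B4. IRF3 (1.05 without B4, -0.08 in B4), IRF7 (1.23, 0.16 in B4) and IRF9 (1.5, -0.48 in B4) passed only without B4. The call of IRF1 was lost without B2, B6, B5, B7 or B808 (0.62 to 0.90 over the 9 fits) and that of JAK1 in 7 of the 9 fits (0.37 to 0.55). Without B4, IRF7 was lost when B2, B3, B7, B808 or B857 was left out as well.

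**Figure D2:**
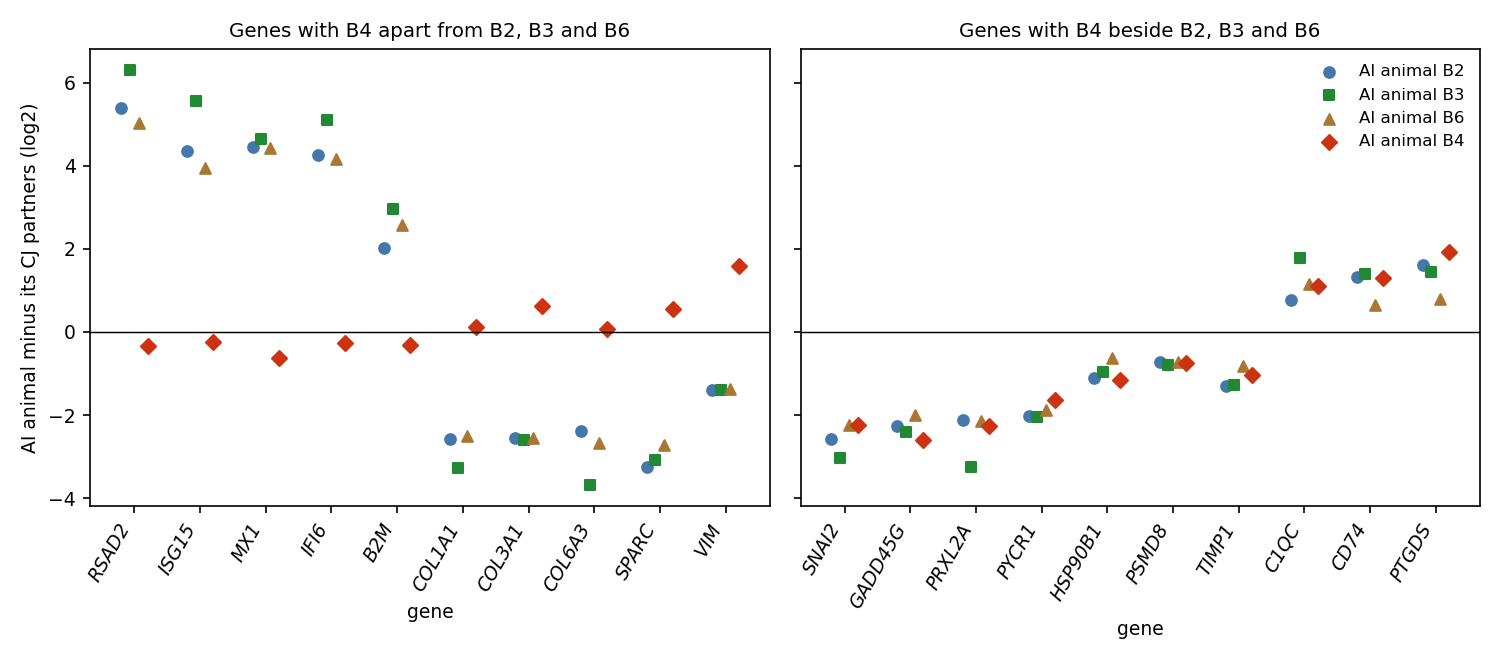
Mean log2 difference of each AI animal from its CJ partners (vertical axis) for 20 genes (horizontal axis), 1 symbol per AI animal, chosen after their values were seen. In the left panel B4 lies near 0 or on the other side from B2, B3 and B6, with RSAD2 at -0.34 against 5.03 to 6.30. In the right panel B4 lies beside them, with SNAI2 at -2.24 against -3.03 to -2.24.

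Among MHC class I and immunoproteasome genes some rose without B4 alone and some with B4 as well. Of 9 class I presentation genes 2 rose and 2 fell with B4, and 5 rose and 2 fell without it. B2M, the light chain of MHC class I, was at 2.03, 2.96, -0.32 and 2.58, that is 1.6 ± 0.50 with B4 (adjusted p = 0.085) and 2.52 ± 0.18 without it (adjusted p = 0.0005). The 5 inducible subunits and activators of the immunoproteasome, PSMB8, PSMB9, PSMB10, PSME1 and PSME2, rose without B4 (median 0.84, led by PSMB9 at 1.84), while B4 was at a median of -0.25. With B4, 0 passed limma's adjusted threshold and 4 were at an unadjusted p under 0.05. BOLA-NC1, a class I heavy chain gene, rose by 1.35 ± 0.33 (1.77 without B4) with B4 at 0.46, a call lost in 7 of the 9 fits. Of its other probes, 1 read 1.38 (adjusted p = 0.17) and 1 read -0.08, and class I genes share sequence, so this value is uncertain. TAPBP, which loads peptides onto class I, rose by 0.41 ± 0.07 (0.38 without B4) with 0.48 in B4, a call lost without B2, B3 or B7.

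Several MHC class II genes rose both with and without B4, which lay on the same side as the other AI animals. CD74, the invariant chain that guides class II molecules, was at 1.32, 1.40, 1.31 and 0.66 in B2, B3, B4 and B6 and rose by 1.18 ± 0.13 (adjusted p = 0.0027, 2.27-fold; 1.12 without B4). The 10 arrays read between 0.56 and 1.75, all above 0. BOLA-DRA, the class II alpha chain, was at 1.34, 1.39, 0.87 and 1.08 (1.14 ± 0.10, adjusted p = 0.001; 1.27 without B4). Both held throughout, as they did when a further animal was left out beside B4. BOLA-DRB3, a beta chain, rose by 0.67 ± 0.10 (0.68 without B4), a call lost without B2, and its other probes read 1.14 and 0.25. CTSS, the protease that trims CD74, was at 1.04, 1.40, 0.29 and 1.32, a rise of 0.94 ± 0.18 (1.26 without B4) lost in 7 of the 9 fits. Of 10 class II genes 5 rose with B4, 5 rose and 1 fell without it, and 2 to 4 rose with B4 when 1 of the other animals was left out.

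Complement genes differed in where B4 lay. The 3 chains of C1q, the part of C1 that binds immune complexes, rose with B4 among the others. C1QA was at 0.84, 1.51, 1.00 and 0.73 (1.02 ± 0.13, adjusted p = 0.0032) and C1QC at 0.77, 1.78, 1.10 and 1.16 (1.20 ± 0.17, adjusted p = 0.00525), and both held throughout (1.03 and 1.25 without B4). C1QB rose by 0.99 ± 0.18 (1.12 without B4) and C4A, the next component of the classical pathway, by 1.14 ± 0.22 (1.19 without B4). Their calls were lost without B2, B6 or B7, C1QB also without B5 and C4A also without B3 or B808. The proteases of C1 differed in B4. C1R was at 3.15, 2.88, -0.10 and 3.19, C1S was at 2.48 without B4 and -0.10 in it, and SERPING1, their inhibitor, at 1.77 and -0.09. In all, 5 of 17 complement genes rose with B4 and 9 without it, and 0 fell.

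Macrophages are a known source of C1q and class II. Of 10 measured macrophage and monocyte markers 0 passed limma's adjusted threshold with or without B4 (2 and 3 at an unadjusted p under 0.05), and their median was 0.02 to 0.10 in the 4 AI animals. Of 13 T and NK cell markers (median 0.04 to 0.11) 0 passed either (1 and 2 unadjusted). The adjusted count was also 0 for 5 B and plasma cell markers (0 and 0 unadjusted), 5 neutrophil markers (1 and 1), 3 red blood cell markers (0 and 0) and 4 adipocyte markers (0 and 0). Levels cannot be read from these arrays, so a marker at background would give the same values, and their part in the rises of C1q and class II was not tested. Among 26 chemokines and cytokines 0 passed with B4 by limma (3 at an unadjusted p under 0.05) and 1 without it, IL18 at 0.21.

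OXTR, the oxytocin receptor, was at -3.57, -4.34, -1.19 and -2.73. It fell by 2.78 ± 0.46 with B4 (adjusted p = 0.0091, 6.87-fold) and fell by 3.55 ± 0.28 without it (adjusted p = 0.0007). All 4 AI animals lay below the CJ range of -0.32 to 0.24, with B4 at -1.20 and the others at -4.38 to -2.59. The call with B4 was lost without B2, B6 or B7 (-3.55 to -2.36 over the 9 fits). PGR, the progesterone receptor, was at -0.56, -0.64, -0.24 and -0.81, a fall of 0.54 ± 0.14 that passed narrowly (adjusted p = 0.049; -0.68 without B4) and was lost in 7 of the 9 fits. ESR1, the oestrogen receptor, was at -0.16 ± 0.13 and did not pass with B4 (adjusted p = 0.57) or without it (adjusted p = 0.21).

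HSD11B2, which inactivates cortisol, was highest in B4. It was at 1.00, 1.30, 3.29 and 0.55, and the 4 arrays of B4 read 2.53 to 3.87 against 0.22 to 1.72 on the other 6. The rise of 1.71 ± 0.44 with B4 (adjusted p = 0.043) was 0.96 ± 0.20 without it (adjusted p = 0.019). It lost its call in 8 of the 9 fits, all but that without B4. HSD11B1, which makes cortisol, fell by 0.35 ± 0.09, did not pass without B4 (-0.26, adjusted p = 0.063), was lowest in B4 (-0.52) and passed in only 1 of the 9 fits.

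Among prostaglandin genes, PTGDS, a prostaglandin D synthase, rose, at 1.62, 1.44, 1.91 and 0.80 (1.48 ± 0.26, adjusted p = 0.011; 1.28 without B4). PTGES, a prostaglandin E synthase, rose by 0.40 ± 0.10, a call lost without B4 (0.35, adjusted p = 0.055) and in 5 other fits. HPGD, which breaks prostaglandins down, was at 3.12, 3.67, -1.29 and 3.95, that is 1.99 ± 0.87 with B4 (adjusted p = 0.21) and 3.60 ± 0.24 without it (adjusted p = 0.0004). PTGS2, the inducible cyclooxygenase, was at 0.01 ± 0.05 and did not pass. Its other probe read -0.10 with B4 and 0.76 without it (adjusted p = 0.074). The call of PTGDS was lost without B2, B3, B5 or B7, at 1.28 to 1.67 over the 9 fits.

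Of 19 measured genes of uterine secreted proteins 2 rose with B4, against 3 rises and 3 falls without it. Of all genes 4.12% rose with B4, and 11.3% rose and 13.4% fell without it. CST3, a protease inhibitor, rose by 0.53 ± 0.12 (0.60 without B4), and CTSH, a lysosomal protease, by 0.52 ± 0.12 (0.36 without B4, adjusted p = 0.07, not past the test). Both calls were lost in 7 of the 9 fits. CTSB, a cathepsin, fell by 0.56 without B4 and was at 1.31 in B4. SERPINA14, the uterine milk protein, varied widely between animals. It was at -1.11, 0.69, -3.05 and 4.68 in B2, B3, B4 and B6. Its fitted level among CJ animals ran from -2.09 to 2.27. The AI mean was -0.03 ± 1.23 (adjusted p = 0.995), and without B4 it was 1.44 ± 1.16 (adjusted p = 0.49). AI and CJ animals overlapped for this gene.

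Of 19 nutrient transporters 1 rose with B4, a share near the 4.12% of all genes, and 4 rose and 1 fell without it, where 11.3% and 13.4% of all genes did. SLC2A1, a glucose transporter, was at 2.51, 1.83, 0.36 and 1.35 (1.40 ± 0.36, adjusted p = 0.044, 1.90 without B4, lost in 7 of the 9 fits), and FABP3, which binds fatty acids, at 1.73, 2.82, -0.05 and 1.48 (2.03 ± 0.33 without B4, adjusted p = 0.00815). Without B4, FABP3 was lost when B2 or B7 was left out too. SLC1A5, a glutamine transporter, fell by 0.66 without B4 and was at 0.14 in it. In the insulin-like growth factor system, IGFBP6, which binds IGF2, fell, at -1.21, -1.81, -1.35 and -1.87 (-1.53 ± 0.22, adjusted p = 0.0049; -1.63 without B4) and held throughout. IGF2 rose by 0.88 ± 0.19 (0.68 without B4), highest in B4 (1.30), a call lost in 6 of the 9 fits. IGFBP3 was at -1.34 without B4 and 0.23 in it. IGFBP1 was at 0.37 ± 0.51 and 0.94 without B4 and passed in neither fit.

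In the Wnt pathway, the secreted inhibitor DKK1 was at 3.43, 3.72, -0.51 and 3.93. It was 2.33 ± 0.75 with B4 (adjusted p = 0.091) and 3.69 ± 0.20 without it (adjusted p = 0.00026), and held when a further animal was left out. AXIN2, a target and brake of the pathway, fell by 0.89 ± 0.10 without B4 and was at -0.06 in it. AXIN1 and SFRP2 rose by 0.41 and 0.49 with B4 among the others, at 0.49 and 0.75 (0.38 and 0.36 without B4), both lost in 7 of the 9 fits. In TGF-beta signalling, SMAD2, which carries the signal to the nucleus, fell by 0.53 ± 0.06 (adjusted p = 0.0027; -0.58 without B4) with -0.42 in B4 and held throughout. TGFB1I1, a focal adhesion adaptor, fell by 0.83 ± 0.16 (-0.97 without B4), at -0.57 in B4 and lost in 5 of the 9 fits. Of 27 genes on that list 2 fell with B4, the share of all genes being 7.46%. Without B4 there were 6 falls and 4 rises, where 13.4% of all genes fell and 11.3% rose.

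Many stromal and collagen genes fell in the fit without B4, and B4 lay at or above its CJ partners for several of them. COL1A1 and COL1A2, the chains of type I collagen, were at -2.58 and -3.39 in B2, -3.28 and -3.49 in B3, -2.51 and -2.87 in B6, and 0.12 and 0.005 in B4. COL1A2 passed with B4 (-2.19 ± 0.55, adjusted p = 0.041, lost in 7 of the 9 fits), COL1A1 did not (-1.85 ± 0.52, adjusted p = 0.06), and without B4 they were -3.24 ± 0.15 and -2.79 ± 0.15 (adjusted p = 0.00017 and 0.00026). COL3A1, of type III collagen, was at -2.55, -2.59, 0.63 and -2.54. SPARC, which binds collagen, was at -3.25, -3.08, 0.54 and -2.73. VIM, the intermediate filament of mesenchymal cells, was at -1.39, -1.41, 1.6 and -1.37. These 3 genes fell without B4 (by 2.56, 3.01 and 1.38) and were higher in B4 than in its CJ partners. On the fitted scale, however, B4 lay inside the CJ range for COL3A1 (0.35, range -0.58 to 0.47) and SPARC (0.13, range -0.72 to 0.58). Only for VIM did it lie above that range (1.27, range -0.42 to 0.66). B8, the partner on 2 of the 4 arrays of B4, was the lowest CJ animal for all 3.

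Of 9 measured stromal fibroblast markers, 1 fell with B4 and 7 without it, with medians of -2.38, -2.09 and -1.77 in B2, B3 and B6 and 0.63 in B4. Of 34 collagens and collagen-processing genes 8 fell and 1 rose with B4, and 18 fell without it. Of 46 matrix glycoproteins and proteases 7 fell and 2 rose with B4, against 23 falls and 5 rises without it. Leaving out any 1 further animal beside B4 gave 6 to 7, 13 to 18 and 16 to 21 falls in the 3 lists. Of the 9 stromal markers, 7 also stand on the collagen or the matrix list. Other genes turned over in B4 were MMP2, a gelatinase (-1.68, -2.0, 2.83 and -1.63), named after its values were seen, and HTRA1, a secreted protease (-2.27, -2.68, 1.37 and -2.28). In bulk tissue, fewer stromal cells and less RNA per stromal cell cannot be told apart, and what share of the matrix genes' fall went with the stromal markers was not tested.

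**Figure D3:**
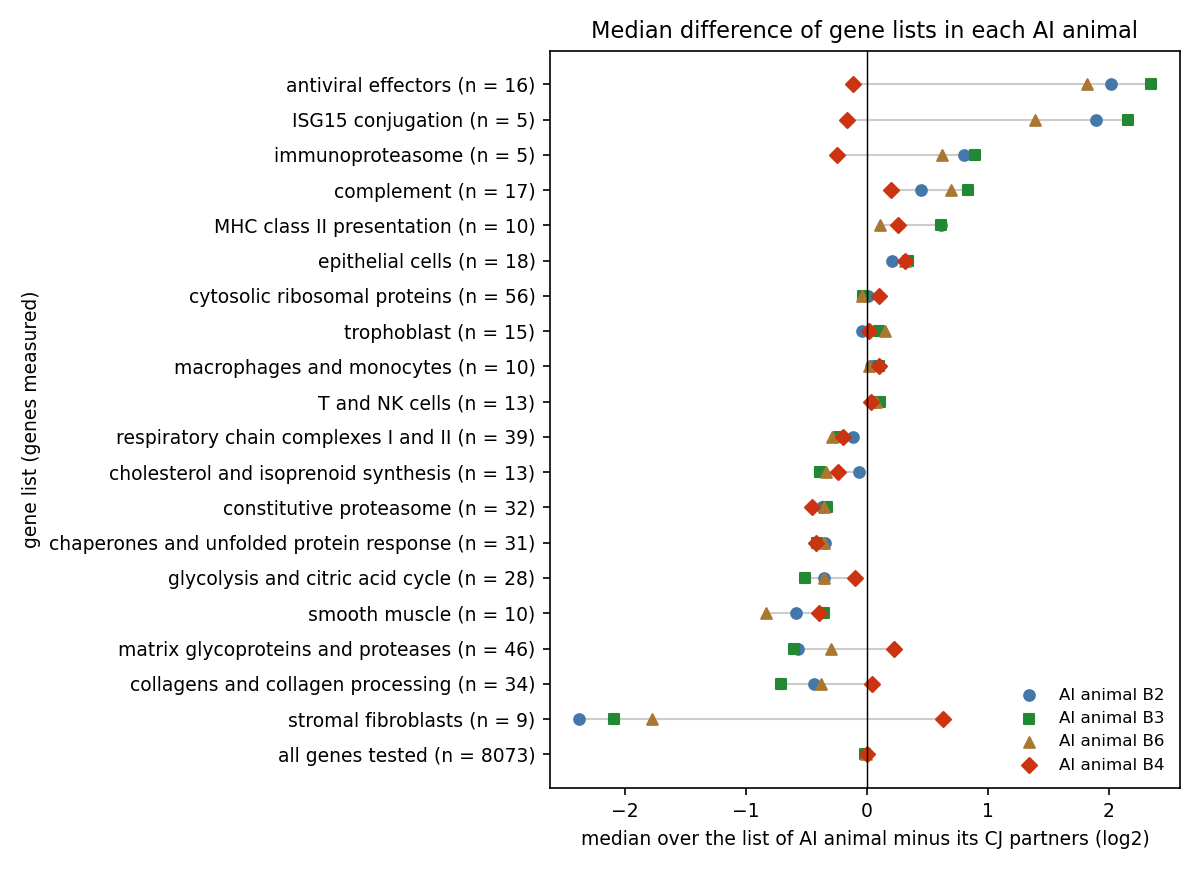
Median log2 difference from the CJ partners (horizontal axis) over the measured genes of 19 lists and over all 8073 genes (vertical axis), 1 symbol per AI animal. B4 lies at 0.63 for stromal fibroblast markers where the other AI animals lie between -2.38 and -1.77, and at -0.42 for chaperones where they lie between -0.41 and -0.35.

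Other matrix genes fell with B4 on the same side as the rest. TIMP1, an inhibitor of matrix proteases, was at -1.31, -1.28, -1.03 and -0.83 (-1.11 ± 0.16, adjusted p = 0.00525; -1.14 without B4). PLAUR, the receptor of urokinase, was at -0.88, -1.14, -0.74 and -0.56 (-0.82 ± 0.11, adjusted p = 0.0049; -0.86 without B4). Both held throughout. The collagen chaperone SERPINH1 fell by 1.77 ± 0.26 (-2.24 without B4), with B4 at -0.82 beside -2.56 to -1.82, and P4HB, part of the enzyme that hydroxylates collagen, by 0.82 ± 0.12 (-0.99 without B4). Both calls were lost without B2. AGRN, a basement membrane proteoglycan, rose at 1.45, 1.89, 1.08 and 1.44 (1.43 ± 0.17, adjusted p = 0.0028; 1.6 without B4) and held throughout. LAMB2, a laminin chain of basement membranes, rose by 0.83 ± 0.14 (0.57 in B4, 0.96 without it), a call lost without B2, B3, B808 or B857. TIMP2 has 2 probes that disagreed in B4. The first read 1.19, 1.35, -0.72 and 1.68, and the other 1.34, 1.21, 1.40 and 1.66.

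Of 10 smooth muscle markers 4 fell with B4 and 5 without it, with medians of -0.59, -0.35, -0.39 and -0.83. ACTG2, an actin of visceral muscle, was at -2.67, -2.77, -1.20 and -2.46 (-2.16 ± 0.33, adjusted p = 0.0065; -2.63 without B4), and TAGLN, an actin-binding protein, at -2.26, -2.63, -0.91 and -2.33 (-1.92 ± 0.28, adjusted p = 0.0057; -2.41 without B4), which held throughout. ACTG2 lost its call without B2, B3 or B6 (to -1.96 at the smallest). MYLK, the kinase of muscle myosin, fell by 1.62 ± 0.29 (-2.14 without B4) and lost its call in 7 of the 9 fits, and its other probe fell by 1.36. CNN1 was at -2.20, -2.66, 1.16 and -2.32, so it alone of the named muscle genes lay on the other side in B4. Their part in the fall of matrix genes was not tested.

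SNAI2, a zinc-finger repressor of epithelial genes in mesenchymal cells, fell, at -2.58, -3.03, -2.24 and -2.24. The 10 arrays read -3.07 to -1.67, and the CJ animals lay between -0.33 and 0.53 on the fitted scale, apart from the AI animals at -3.14 to -1.98. The fall was 2.50 ± 0.19 (adjusted p = 0.00065, 5.66-fold) with B4 and 2.62 ± 0.18 without it, and it held throughout. MSX1, a homeobox factor, was at -1.23, -1.43, 0.88 and -1.38, though its other probe read -0.02. Of the 11 measured mesenchymal transcription factors SNAI2 was the only 1 to fall with B4.

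Of 25 growth arrest and integrated stress response genes 4 fell and 1 rose with B4, and 5 fell and 3 rose without it. Of all genes 7.46% fell and 4.12% rose with B4, and 13.4% fell and 11.3% rose without it, so the rises were near the share of all genes. GADD45G, a growth arrest protein, was at -2.26, -2.40, -2.59 and -1.99 (-2.34 ± 0.17, adjusted p = 0.0006, 5.07-fold; -2.23 without B4). PYCR1, the last enzyme of proline synthesis, was at -2.02, -2.03, -1.63 and -1.88 (-1.86 ± 0.15, adjusted p = 0.00065; -1.98 without B4). PRXL2A, a redox protein on none of the lists, was at -2.12, -3.24, -2.26 and -2.15 (-2.43 ± 0.27, adjusted p = 0.0026; -2.51 without B4). All 3 held throughout. NUPR1, a stress-induced chromatin protein, rose at 1.40, 3.18, 1.08 and 2.14 (1.87 ± 0.33, adjusted p = 0.012; 2.26 without B4), a call lost without B2, B6, B5, B7 or B808. PSAT1, an enzyme of serine synthesis, fell by 1.69 without B4 and was at 1.43 in it.

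Many chaperones of the endoplasmic reticulum fell, with B4 at values close to the other AI animals. Of 31 chaperones and unfolded protein response genes, 16 fell and 0 rose with B4, and 16 fell and 1 rose without it, with medians of -0.35, -0.41, -0.42 and -0.36 in B2, B3, B4 and B6. The falls numbered 10 to 17 when 1 of the other animals was left out. HSP90B1 and HSPA5, the main chaperones of the reticulum, were at -1.12, -0.96, -1.16 and -0.63 (-0.98 ± 0.10, adjusted p = 0.0015) and at -0.83, -0.91, -0.94 and -0.56 (-0.82 ± 0.10). MANF, a stress-induced secreted protein, fell by 1.18 ± 0.11 (adjusted p = 0.0012) and DNAJB11, a co-chaperone of HSPA5, by 0.94 ± 0.11. CALR and PDIA3, which fold glycoproteins and also load class I, fell by 0.64 ± 0.09 and 0.68 ± 0.08. These 6 held throughout. Without B4 they were -0.90, -0.76, -1.12, -1.05, -0.60 and -0.81, in the order given.

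Many subunits of the constitutive proteasome fell. Of 32 measured genes 17 fell and 0 rose with B4, and 19 fell without it, with medians of -0.37, -0.33, -0.46 and -0.36. PSMD8, of the regulatory particle, was at -0.72, -0.78, -0.75 and -0.73, a narrow span, and fell by 0.74 ± 0.06 (adjusted p = 0.00065). PSMA7 and PSMB3, of the core, fell by 0.61 ± 0.07 and 0.60 ± 0.07, and PSMD1 by 0.55 ± 0.07, and all 4 held throughout. Without B4 they were -0.75, -0.55, -0.62 and -0.57. The list had 8 to 19 falls with 1 of the other animals left out. Of 13 genes of cholesterol synthesis 5 fell with B4 and 6 without it. SQLE and FDPS were lowest in B4, at -1.25 and -1.20. They fell by 0.91 ± 0.16 and 0.76 ± 0.14 (-0.76 and -0.55 without B4). Their calls were lost without B2, B808 or B857, with SQLE lost also without B6 and FDPS also without B3 or B7, and 1 to 6 genes of the list passed over these fits. Leaving out 1 further animal beside B4 gave 0 to 4 falls in the list. SQLE kept its call in 1 and FDPS in 2 of those 7 fits.

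Some genes of energy metabolism fell. Of 28 genes of glycolysis and the citric acid cycle 9 fell and 1 rose with B4, against 15 and 1 without it, and 1 to 13 fell with 1 of the other animals left out. LDHA, lactate dehydrogenase, was at -1.67 without B4 and 0.27 in it, whereas PGK1, a kinase of glycolysis, was at -0.74 and -0.56. With B4, PGK1 fell by 0.67 ± 0.11, a call lost without B3, B6, B7 or B808. The 7 probes of PGK1 read -0.75 to -0.65. Of 39 genes of respiratory complexes I and II 10 fell with B4 and 13 without it, and 2 to 16 fell with 1 of the other animals left out. NDUFA5, of complex I, was at -0.61, -0.82, -0.70 and -0.55 (-0.67 ± 0.08, adjusted p = 0.0027; -0.66 without B4) and held throughout, as did NDUFA12 (-0.39 ± 0.05; -0.42 without B4). Of 31 genes of complexes III and IV and ATP synthase 6 fell with B4, and 7 fell and 1 rose without it. Among them were COX7A2 (-0.66 ± 0.11, -0.60 without B4, lost without B3, B6, B7 or B808) and ATP5MC1 (-0.69 ± 0.13, -0.73 without B4, lost without B2, B3, B6, B7 or B857).

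Ribosomal protein genes went both ways, with 8 rises and 4 falls of 56 with B4 and 10 and 14 without it. The falls with B4 were near the 7.46% of all genes, and without B4 11.3% of all genes rose and 13.4% fell. The medians were 0.01, -0.03, 0.10 and -0.04. RPL32 rose at 0.57, 0.66, 0.44 and 0.63 (0.56 ± 0.08, adjusted p = 0.0048, 0.63 without B4) and held throughout. RPS21 fell by 0.43 ± 0.08 (-0.51 without B4), a call lost without B2, B3, B6, B7, B808 or B857. Of 45 cell cycle and replication genes 1 rose and 3 fell with B4, fewer than the shares of 4.12% and 7.46% over all genes give, and 2 rose and 9 fell without it. CCND3, cyclin D3, rose at 1.39, 1.90, 0.41 and 1.56 (1.22 ± 0.23, adjusted p = 0.015; 1.62 without B4). PCNA, the sliding clamp of replication, fell by 0.49 ± 0.12 (-0.56 without B4) and CDK4, a G1 kinase, by 0.36 ± 0.09 (-0.50 without B4). The calls of CCND3, PCNA and CDK4 were lost in 7 of the 9 fits. TOP2A, a marker of dividing cells, was at -0.34 without B4 and 0.69 in it.

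A few epithelial markers rose, with B4 among the others. Of 18 measured, 4 rose with B4, against 6 rises and 2 falls without it, and 0 to 6 rose with 1 of the other animals left out. Their medians were 0.20, 0.34, 0.31 and 0.32. CDH1, the cadherin of epithelial junctions, was at 0.46, 0.63, 0.37 and 0.44 (0.46 ± 0.09, adjusted p = 0.015; 0.51 without B4), and CLDN3, a tight junction protein, at 0.86, 0.73, 0.58 and 1.99 (0.99 ± 0.22; 1.19 without B4). CDH1 was lost in 6 of the 9 fits and CLDN3 in 5. KRT18 passed in neither fit (0.06 ± 0.14, 0.20 without B4), and KRT19 fell by 1.02 without B4 and was at 1.16 in it. The endothelial marker CLDN5 rose, at 0.79, 0.76, 0.62 and 0.76 (0.72 ± 0.08, adjusted p = 0.0021; 0.77 without B4) and held throughout, while PECAM1, another, fell by 0.55 ± 0.14 (-0.63 without B4) and was lost in 7 of the 9 fits. Of 15 trophoblast markers 0 passed with B4 by limma (0 at an unadjusted p under 0.05) and 1, PTI, without it (0.80, with -0.68 in B4). IFNT2, an interferon tau gene, was at -0.55, 0.15, 0.05 and 0.27 and did not pass.

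Some of the largest rises with B4 belonged to no list. PLXDC1, a membrane receptor of vessels, was at 1.46, 1.04, 1.54 and 1.64 (1.42 ± 0.16, adjusted p = 0.0027; 1.38 without B4) and held throughout. PTN, a heparin-binding growth factor, was at 1.17, 1.67, 2.13 and 0.70, and HTR6, a serotonin receptor, at 1.49, 0.99, 2.09 and 1.26, both highest in B4 (1.19 and 1.26 without it). SCARA5, a ferritin receptor, had the largest rise past the test with B4, 2.46 ± 0.62 (adjusted p = 0.04), from 3.75, 3.13, 0.45 and 3.54. ZNFX1, a sensor of viral RNA (2.56, 3.14, 0.08 and 2.96), TXNIP, an inhibitor of thioredoxin (2.54, 2.48, 0.42 and 2.03), and TGM2, a transglutaminase (1.97, 2.46, 0.29 and 1.54), were at 2.89, 2.34 and 2.0 without B4 and lay nearer to 0 in B4. The calls of SCARA5, ZNFX1, TXNIP and TGM2, and of CCDC152 (1.94, 2.78 without B4), SLC16A11 (2.03, 2.60) and ABTB1 (1.58, 2.25), were kept only without B4 or without B8. Over the 9 fits they ranged from 2.17 to 3.47 for SCARA5 and from 1.20 to 2.0 for TGM2. PTN lost its call in 6 of these fits and HTR6 without B2 or B808.

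Among the other falls, CKAP4, a membrane protein of the endoplasmic reticulum, was at -2.31, -2.36, -0.85 and -1.83 (-1.73 ± 0.23, adjusted p = 0.0042; -2.16 without B4) and held throughout. PLK2, a stress-linked kinase, was at -1.94, -2.22, -1.28 and -1.55 (-1.91 without B4) and lost its call without B2, B6, B5 or B7. NPY, a neuropeptide, fell by 2.49 ± 0.48 (-2.94 without B4), but the 2 arrays of the same pair, B4 and B8, read -1.82 and 1.33, so its value in B4 is uncertain. PMEPA1, a brake of TGF-beta signalling (-2.07), CCN3, a matricellular protein (-1.97), and RARRES1, a retinoid-induced gene (-1.72), were at -0.26, -0.20 and -0.31 in B4 and at -2.95, -2.85 and -2.41 without it. The calls of NPY, PMEPA1, CCN3 and RARRES1 were kept only without B4 or without B8. MFAP5, of elastic microfibrils, fell by 1.70 ± 0.34 (-2.28 without B4) and lost its call in 6 of the 9 fits.

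The 2 arrays of B4 with B8 share no animal with the 6 arrays of B2, B3 and B6, which allows the groups to be set side by side. Of 150 genes that rose by more than 1 without B4, 50 had the same sign in the B4 and B8 pair and 13 reached at least 50% of the size. Of 145 genes that fell by more than 1, 66 had the same sign and 26 reached that size. Among the 20 such rises on the interferon lists 3 had the same sign and 0 reached it, against 47 and 13 of the 130 other rises. Of 29 such falls on the matrix, stromal and muscle lists 12 had the same sign and 3 reached it, against 54 and 23 of the 116 other falls. All these genes were chosen by their size in the fit without B4, and that choice alone favours smaller values in the pair. The shares over all genes were not computed, so the counts are a description. Across all 13824 probes the pair correlated with the fit without B4 with r = -0.063, a description across probes. SNAI2 (-2.58 in the pair), GADD45G (-2.31), CD74 (1.33) and TIMP1 (-1.13) lay near the line of equal difference.

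**Figure D4:**
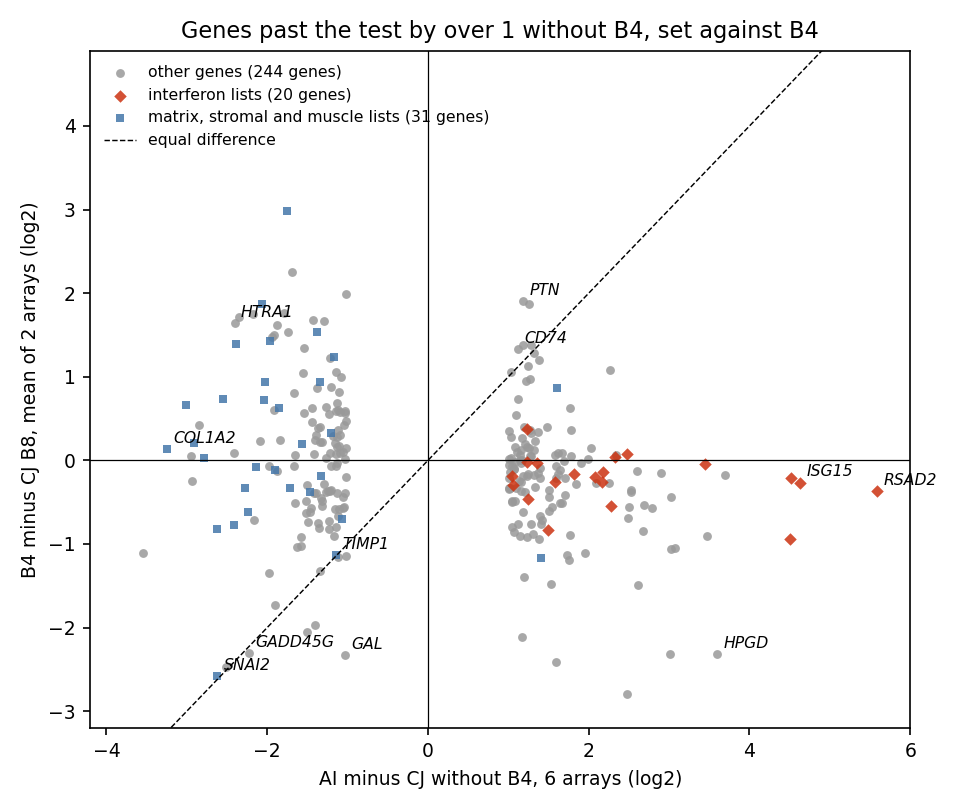
Log2 difference of AI animal B4 from CJ animal B8, the mean of their 2 arrays (vertical axis), against AI minus CJ in the fit without B4 (horizontal axis), for the 150 rises and 145 falls past adjusted p of 0.05 and a difference of 1 in that fit. Diamonds are interferon-list genes, squares matrix, stromal and muscle genes, and circles all others. Vertically, RSAD2 lies at -0.37 and MX1 at -0.95, while SNAI2 and GADD45G lie near the dashed line.

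The pair rests on B8 as well as on B4, and B8 was the most distant of the CJ animals. The SD over probes of the fitted levels was 0.239 in B8 and 0.153 to 0.214 in the other CJ animals, against 0.329 in B4 and 0.380 to 0.483 in B2, B3 and B6. B8 lay at 2.35 for SCARA5, 1.93 for HPGD, 1.61 for SLC16A11 and 1.54 for C1R, where the other CJ animals lay at or below 0.19. It was thus on the side of B2, B3 and B6 for these genes and not for RSAD2 (0.13) or OXTR (-0.21). For MX1, B8 lay at 0.88 and the other CJ animals at or below -0.03. B4 lay at -0.30 for MX1 against the mean of all CJ animals, and at -0.95 in its pair with B8. Against the mean of all CJ animals, B4 lay at 1.37 for SCARA5 and at 0.47 for C1R rather than at the -0.90 and -1.04 of its pair with B8. For COL3A1, SPARC and VIM, where B8 was the lowest CJ animal, B4 lay at 0.35, 0.13 and 1.27 against that mean. In its pair with B8 it read 0.73, 0.66 and 1.54. What set B8 apart was not tested.

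**Figure D5:**
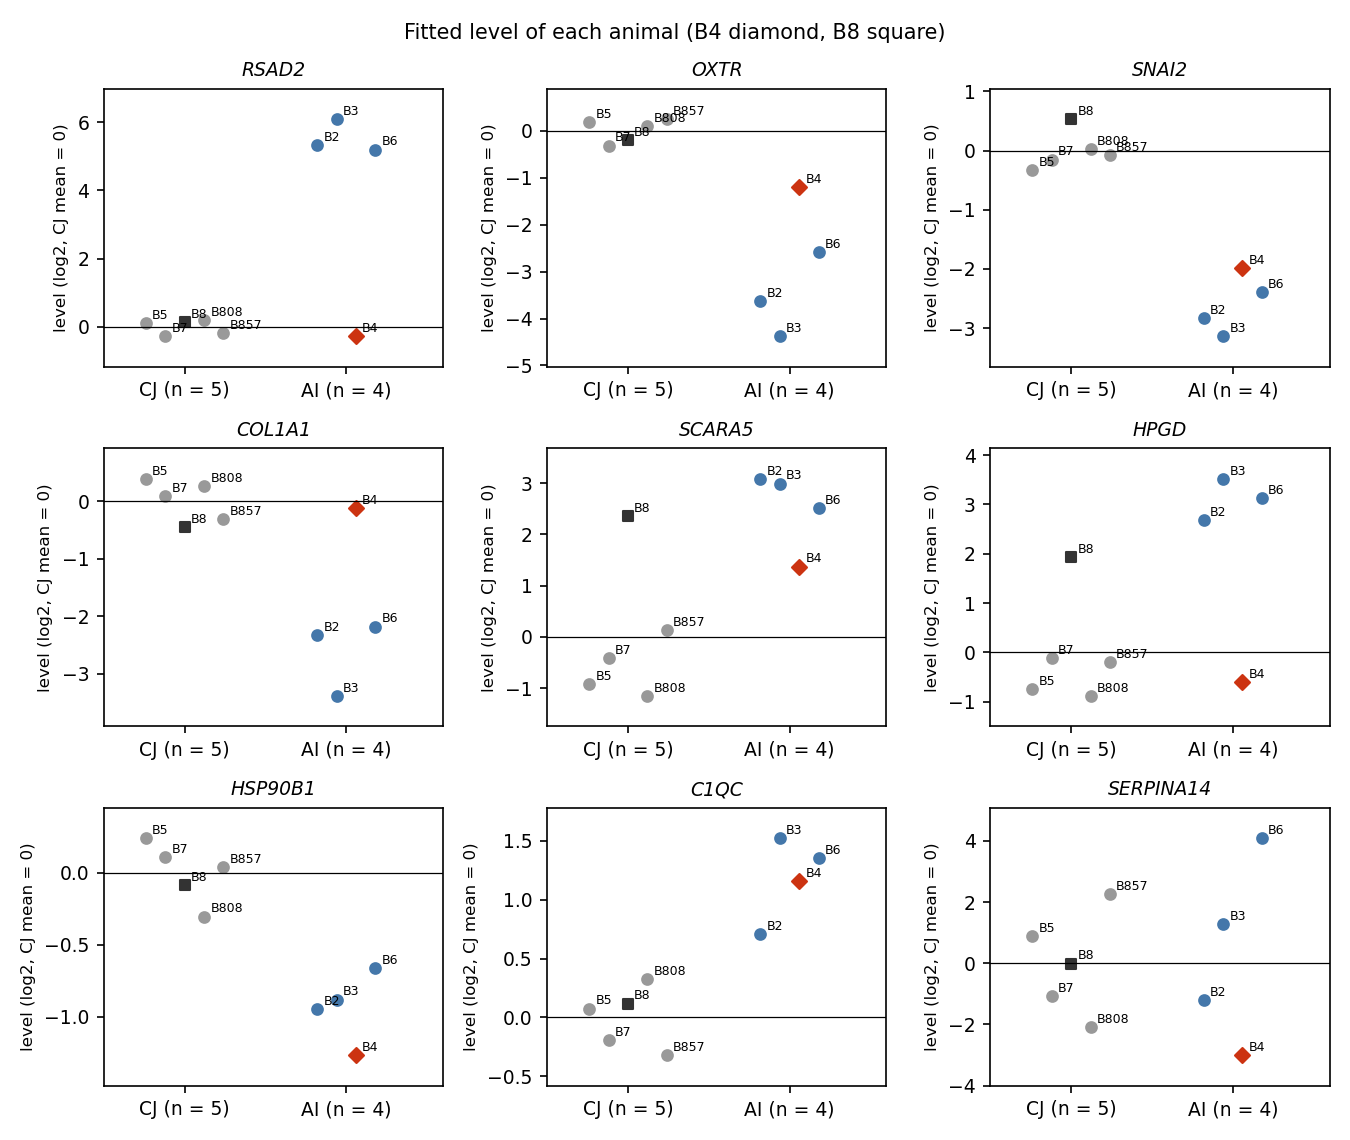
Fitted log2 level of each of the 5 CJ and 4 AI animals (horizontal axis), relative to a CJ mean of 0 (vertical axis, a separate scale per panel), for 9 genes. The diamond is B4 and the square B8. B4 lies with the CJ animals for RSAD2 and COL1A1 and with the AI animals for SNAI2, C1QC and HSP90B1, and B8 lies at 2.35 for SCARA5.

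For 3 lists the medians of B4 lay on the same side on its 2 pairs of consecutive arrays. The median of the antiviral effectors was -0.16 on the arrays with B808 and B8 (numbered 124 and 125) and -0.07 on those with B8 and B857 (126 and 127), and the stromal marker median was 0.49 and 0.75. For chaperones the medians were -0.38 and -0.40. The means of the pairs correlated with r = 0.780 across probes, though both hold B4 and B8. Single genes differed more: NPY was at -2.50 on the former pair and -0.78 on the latter.

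The SCNT animals were set against the same CJ animals, so the differences from CJ are given side by side. SCNT against CJ was tested too (1420 probes higher and 1559 lower), but p-values are given here only for SCNT against AI. Over 20 arrays the difference between SCNT and AI passed for 29 genes (0.359% of 8073), and without B4 for 6 (0.0743%). PLET1, a surface protein of epithelial progenitors, was at 0.40 in AI and 4.06 in SCNT animals (difference 3.65 ± 0.49, adjusted p = 0.001, and 3.50 without B4, adjusted p = 0.019). LY6G6C, a small surface protein, was at 0.87 and 3.62. It was at 2.03, 1.65, -0.01 and 0.42 in B2, B3, B4 and B6, and the difference was 2.25 without B4 (adjusted p = 0.014). UQCR11 and ATP5MC3, of complex III and ATP synthase, were at -0.27 and -0.36 in AI and 0.61 and 0.42 in SCNT animals, and ALAS1, of haem synthesis, at 0.01 and 0.87. All 5 passed with and without B4. FABP3 (1.28 and 4.27) passed with B4 and not without it (difference 2.26, adjusted p = 0.16), and FAM20C, a secreted kinase, passed without B4 alone (0.67, adjusted p = 0.022).

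For RSAD2 the SCNT minus AI difference was 2.0 with B4 (adjusted p = 0.62) and -0.13 without it (adjusted p = 0.9998), neither past the test. The list medians of the antiviral effectors were 1.37 in AI with B4, 2.12 without it and 1.77 in SCNT animals, each against CJ. For the stromal markers they were -1.02, -2.07 and -1.62. The AI medians are from the AI arrays alone and the SCNT medians from the fit of 20 arrays.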

How the data were processed

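Each array held 27648 spots, 2 adjacent spots for each of 13824 probes. The values were deposited by the authors as log2 ratios of 2 dyes. Base 2 was tested on the 331 values below -4: 100% matched the logarithm of a rounded ratio in base 2 (tolerance 6e-05), against 0.906% in base e and 0% in base 10. The scanner settings, background correction, normalization and numerator dye are not given here in any source used, and no intensities were used, so differences but no levels could be computed. That limits the precision to the number of arrays. Symbols came from the platform annotation: 8645 probes have 1, 105 several and 5074 none. For 8620 probes the gene was found in a RefSeq table and its symbol taken from there, whether or not it differed.

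Ratios were turned to AI minus CJ and the 2 spots averaged. The dye-swapped arrays of B4 and B8 were averaged, giving 9 values, and limma 3.58.1 under R 4.3.3 fitted them by generalized least squares with a dye term and a pooled correlation of arrays that share an animal (0.23, and 0.08 without B4). Adjusted p-values are Benjamini-Hochberg over 13824 probes. The animal was counted as the replicate through the pooled correlation. A value per AI animal is the mean over its CJ partners. A fitted level per animal came from least squares over 20 arrays, with 6 residual degrees of freedom. The script was tested on simulated data.

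The naming rule took up to 15 rises and 15 falls past the threshold that share their sign in at least 3 of 4 AI animals. It added up to 8 of each more without B4, up to 4 genes per list with a call, by p, and 16 fixed genes. The 153 genes that result are the named genes. Only some of them are shown in the text, and no rule is given for that choice. A gene is represented by its first complete probe. The members and lists were chosen with earlier results of these data known. Alternatives tried were 20 arrays, equal weight per AI animal, a correlation of 0, no dye term, single spots, centring, scaling, robust variances, pairs of B4 arrays left out and each animal left out.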

Additional observations from a re-analysis of the deposited data

Results flagged for a closer look

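In 20 of the 193 groups of 4 AI animals examined, 1 animal lay far from the other 3 relative to the group's range, where chance flags about 1 in 20 groups. That rate is no yardstick for B4, which was that animal in 16 of them. Of these, MX1, DKK1, HPGD, C1R, SPARC, COL3A1, HTRA1, CNN1 and CRABP2 are 9 genes among the largest changes in the fit without B4. They were named for that reason, though MX1 and HPGD are fixed genes as well. B4 lay low for CCDC152 (0.227), MX1 (-0.632), DKK1 (-0.507), HPGD (-1.29), C1R (-0.0969) and the median of the prostaglandin list (-0.129). It lay high for RARRES1 (-0.308), SPARC (0.543), COL3A1 (0.627), HTRA1 (1.37), CNN1 (1.16), CRABP2 (1.14), VIM (1.6), SLC1A5 (0.139), MSX1 (0.878) and MYLK (-0.578). The AI minus CJ difference on the other probe of CRABP2 was -0.005 with B4 and 0.03 without it, and neither passed limma's adjusted threshold (adjusted p = 0.98 and 0.82). B6 was the distant animal for CD74 (0.657) and MANF (-0.831), and B3 for PRXL2A (-3.24) and the median of uterine secreted proteins (-0.091).

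Among the genes taken by the naming rule, the difference SCNT minus AI passed the test over 20 arrays for CST3 (0.847), FABP3 (3.0), LTBP3 (-0.609), ATP5MC1 (0.663) and ATP5MC3 (0.777). Without B4 only ATP5MC3 of these 5 passed.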

How the results depend on the processing

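The 1248 probes called with B4 became 2095 over 20 arrays, 593 with equal weight per AI animal, 2192 with a correlation of 0, 2775 without B4 and 146 with a difference above 1. With 1 animal left out they ranged from 231 to 2775: 231 without B3, 266 without B2, 302 without B7, 306 without B808, 334 without B6, 419 without B857, 481 without B5 and 2183 without B8. At an unadjusted p under 0.05 there were 3175 probes with B4 and 4381 without it. The 2775 probes without B4 ranged from 1147 to 2032 with a further animal left out (1147 without B7, 1363 without B2, 1452 without B3, 1512 without B6). Of the named genes called with B4, 62 of 108 kept their call with equal weight per AI animal. The cause of these changes was not tested, except that leaving out animals leaves fewer arrays. Over the alternatives, named genes kept direction and side of the threshold in 1257 instances, lost the call in 482, gained it in 97 and reversed in 17.

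None of the single genes that reversed passed with B4 except BOLA-NC1, whose second other probe read -0.0764, and the cause was not tested. PTGS2 was at -0.0103 without B2, -0.000541 without B6, -0.0305 without B5 and -0.101 on its other probe. SERPINA14 was at 0.303 with equal animals, 1.44 without B4, 0.499 without B2, 0.0363 without B5, 0.300 without B8 and 0.529 without B857. IGFBP1 was at -0.194 without B2. KRT18 was at -0.0153, -0.0365 and -0.0532 without B2, B6 and B5. IFNT2 was at 0.151 and 0.105 without B2 and B5. List medians near 0 also reversed: nutrient transporters to 0.00902, 0.0020 and 0.00426 (without B3, B5, B7), Wnt signalling to -0.0171 (without B4), integrins to 0.000874 and 0.00544 (without B3, B6), mesenchymal factors to 0.0506 and 0.0943 (without B3, B5) and ribosomal proteins to -0.0190 (without B8).

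Each ratio already pairs an AI with a CJ animal on the same array, and the fits used these ratios. No further pairing of animals was tested. The planned promoter motif count was not run, since no promoter sequences were used here. Signal over background is unknown, so a probe near background cannot be told from an unchanged gene.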
